A study of Mus musculus with 4 samples.

Results

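The S100 proteins are small calcium-binding proteins with paired EF hands, and 8 of their genes were followed through 4 RNA-Seq libraries of neutrophils from the injured mouse heart. The genes are *S100a8*, *S100a9*, *S100a11*, *S100a6*, *S100a4*, *S100a10*, *S100a13* and *S100a1*. They were taken by gene name from the 25655 genes of each library, and all 8 were found. Binding of calcium opens a hydrophobic face through which S100 dimers grip annexins, myosin and other partners inside the cell. S100A8 and S100A9 pair into calprotectin, a major cytosolic protein of neutrophils. Released at sites of injury, calprotectin takes up zinc and manganese, and it acts as an alarmin on TLR4 and RAGE in ischemic myocardium.

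The study compared WT C57BL/6J mice with *Cd300a-/-* mice on the C57BL/6 background, which lack the inhibitory receptor CD300a in every cell. Male mice of 8 to 12 weeks underwent MI/R, in which the left anterior descending artery was occluded for 60 minutes and then reopened. Hearts were taken on day 3 of reperfusion, and CD45.2+CD11b+Ly6G+ cells were sorted into SiglecF hi and SiglecF lo neutrophils. The 4 groups were WT SiglecF hi, *Cd300a-/-* SiglecF hi, WT SiglecF lo and *Cd300a-/-* SiglecF lo neutrophils, with 1 library each, made from cells pooled from 8 mice, and no library from uninjured hearts was analysed. A pool hides the variation between its mice, and the deletion is germline, so effects on neutrophils and on the tissue around them are mixed. No difference below has a replicate check. Every comparison describes these libraries, and no P value between conditions is given.

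Levels are given as TPM, a transcript level corrected for gene length and depth, as the authors deposited it. The total count on genes was 19278243 for WT and 17632989 for *Cd300a-/-* in the SiglecF hi subset, and 9631901 for WT and 10988619 for *Cd300a-/-* in the SiglecF lo subset. Differences are log2((TPM + 1) ratios), a scale that understates the change of low genes. A gene was called past a log2 ratio of 0.5 in either direction. The genes tested are the 6523 with a mean TPM above 10 over the 4 libraries, and all 8 S100 members are among them. Brackets hold 95% counting intervals from the Poisson error of the counts. They cover counting error only, since the reads carry no molecular identifiers and several may come from 1 molecule.

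The labels were checked first. *Cd300a* had 6640 counts for WT and 27 for *Cd300a-/-* in the SiglecF hi subset, and 3024 for WT and 28 for *Cd300a-/-* in the SiglecF lo subset. *Siglecf* stood at 354 TPM in WT SiglecF hi, 405 TPM in *Cd300a-/-* SiglecF hi, 11.3 TPM in WT SiglecF lo and 15.3 TPM in *Cd300a-/-* SiglecF lo neutrophils. Both went with the labels of genotype and subset. *Ly6g*, whose protein was used in the sort, was at 11.1 TPM for WT and 41.9 TPM for *Cd300a-/-* in the SiglecF hi subset, and 330 TPM for WT and 889 TPM for *Cd300a-/-* in the SiglecF lo subset. Its transcript was therefore scarce in the SiglecF hi libraries, above all in WT, while the neutrophil receptor gene *Csf3r* lay at 1069 TPM or more in each library.

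The S100 members together made up 2.99% of all TPM for WT and 3.35% for *Cd300a-/-* in the SiglecF hi subset, and 15.3% for WT and 18.8% for *Cd300a-/-* in the SiglecF lo subset. As a share of counts, which favours long genes, they took 0.723% (Wilson interval 0.719 to 0.727) for WT and 0.787% (0.783 to 0.791) for *Cd300a-/-* in the SiglecF hi subset, and 4.26% (4.25 to 4.28) for WT and 5.04% (5.03 to 5.06) for *Cd300a-/-* in the SiglecF lo subset. On both scales the SiglecF lo libraries were the high ones, and the *Cd300a-/-* library lay above WT within each subset. *S100a8* and *S100a9* carried most of this. They held 80.6% of the members' TPM for WT and 83.1% for *Cd300a-/-* in the SiglecF hi subset, and 90.1% for WT and 92.0% for *Cd300a-/-* in the SiglecF lo subset. The order of the members by TPM was the same in each of the 4 libraries, *S100a9* first, then *S100a8*, *S100a11*, *S100a6*, *S100a4*, *S100a10*, *S100a13* and *S100a1*. No neighbours in that order had overlapping counting intervals in any library. The exon length behind the deposited values is longer than the longest GENCODE M21 transcript for all 8 genes, by 1.13 to 1.86 times. *S100a6* is the extreme, at 1458 nt against 783 nt, so its TPM per transcript is understated most when it is set beside the others.

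**Figure D1:**
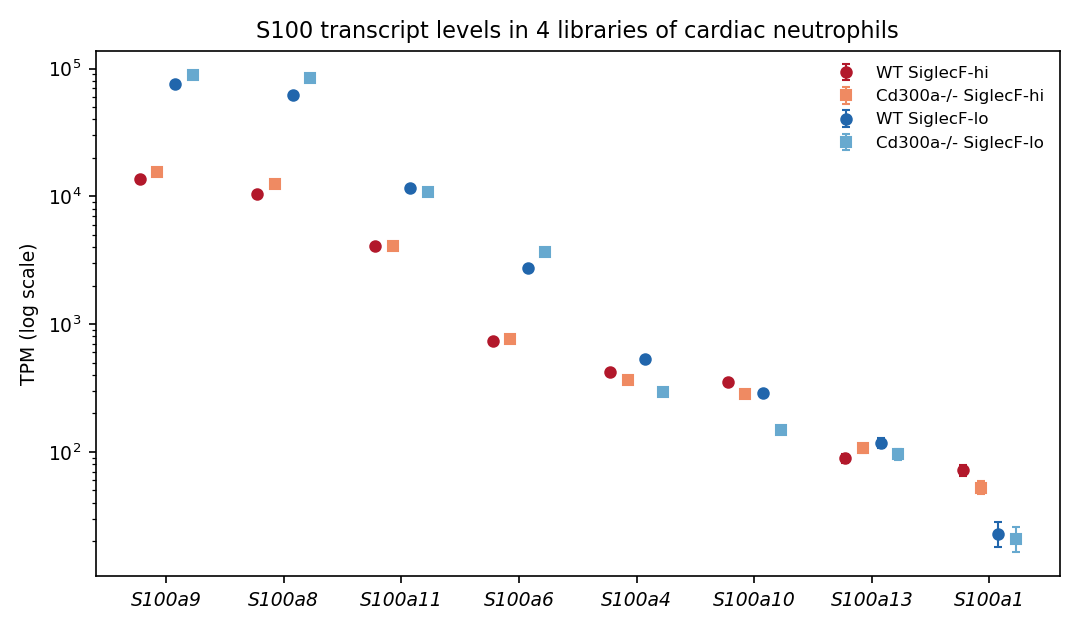
TPM (log axis) of the 8 S100 members in the 4 libraries, 1 point per library, with 95% counting intervals that are mostly smaller than the points. *S100a8*, *S100a9*, *S100a6* and *S100a11* lay higher in both SiglecF lo libraries (blue) than in both SiglecF hi libraries (red), and *S100a1* lay lower.

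The members lie on chromosome 3 in blocks far apart. In GRCm39, the build that the submitters' processing notes name, *S100a1* (ENSMUSG00000044080, 90418341 to 90421699, minus strand) and *S100a13* (ENSMUSG00000042312, 90421742 to 90431888) start 42 bases apart and run in opposite directions. *S100a4* (ENSMUSG00000001020, 90511078 to 90513352), *S100a6* (ENSMUSG00000001025, 90520189 to 90531488), *S100a8* (ENSMUSG00000056054, 90576285 to 90577342) and *S100a9* (ENSMUSG00000056071, 90599939 to 90603028, minus strand) follow. After a gap of 2824766 bases come *S100a11* (ENSMUSG00000027907, 93427795 to 93433594) and *S100a10* (ENSMUSG00000041959, 93462387 to 93471950). The gap holds 65 genes, and none reached a mean of 10 TPM. The highest value of any of them in any library was 5.85 TPM. Some neighbours on the chromosome moved alike between subsets and others did not. *S100a8* and *S100a9*, 22596 bases apart, moved nearly in step. Their log2 ratios of SiglecF hi to SiglecF lo were -2.58 and -2.47 in WT and -2.75 and -2.54 in *Cd300a-/-* neutrophils. Between subsets *S100a11* was far lower in SiglecF hi neutrophils and *S100a10*, 28792 bases away, was not, and the same held for *S100a6* and *S100a4*, 6836 bases apart.

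**Figure D2:**
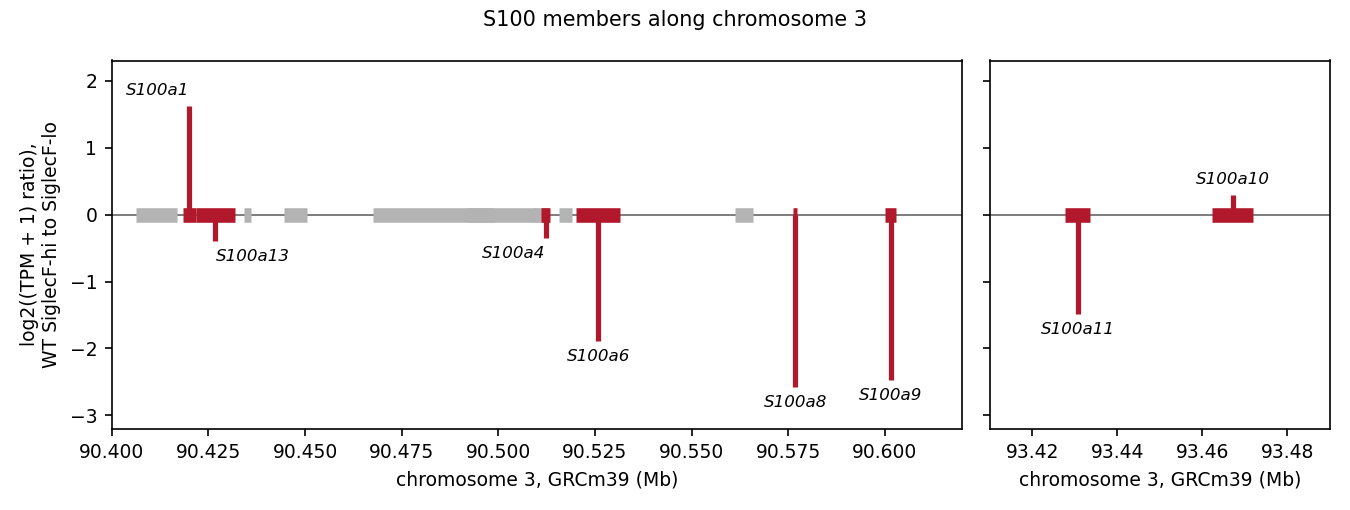
Position on chromosome 3 (GRCm39, Mb; the axis is broken between the panels) of the 8 members in red and of other genes in grey, with the log2((TPM + 1) ratio) of SiglecF hi to SiglecF lo neutrophils in WT as a vertical line at each member. The line for *S100a8* reaches -2.58 and that for *S100a1* reaches 1.62.

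To read the subsets against each other, the shift of all genes has to be known. When SiglecF hi was set against SiglecF lo, the 6523 genes had a median log2 ratio of 0.53 in WT and 0.61 in *Cd300a-/-* neutrophils. The genotypes differed by a median of -0.02 in the SiglecF lo subset and 0.04 in the SiglecF hi subset. Subset ratios are therefore also given relative to the median, called centred below.

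*S100a8* and *S100a9*, which encode the calprotectin subunits, differed most between the subsets. *S100a8* was at 10370.0 TPM for WT and 12449 TPM for *Cd300a-/-* in the SiglecF hi subset, and 61914 TPM for WT and 83596 TPM for *Cd300a-/-* in the SiglecF lo subset. *S100a9* was at 13719 TPM in WT SiglecF hi, 15355 TPM in *Cd300a-/-* SiglecF hi, 76228 TPM in WT SiglecF lo and 89228 TPM in *Cd300a-/-* SiglecF lo neutrophils. For both genes the 4 libraries fell in the same order, *Cd300a-/-* SiglecF lo highest and WT SiglecF hi lowest, with no overlap of the counting intervals. *S100a9* ranked 1st by TPM in both SiglecF lo libraries, and *S100a8* ranked 2nd. In SiglecF hi neutrophils *S100a9* ranked 3 in WT and 2 in *Cd300a-/-*, and *S100a8* ranked 7 and 3.

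Between subsets, *S100a8* was 5.97-fold lower in SiglecF hi than in SiglecF lo neutrophils in WT, a log2 ratio of -2.58 (-2.59 to -2.56), or -3.10 centred. In *Cd300a-/-* neutrophils its log2 ratio was -2.75 (-2.76 to -2.73), or -3.36 centred. *S100a9* gave -2.47 (-2.49 to -2.46) in WT and -2.54 (-2.55 to -2.53) in *Cd300a-/-* neutrophils. Of the 6523 genes, 27 had a lower ratio than *S100a8* in WT and 32 a lower ratio than *S100a9*. In bulk libraries, fewer cells that express a gene and less RNA of that gene per cell cannot be told apart. The 6 neutrophil marker genes other than this pair (*Ly6g*, *Csf3r*, *Cxcr2*, *Retnlg*, *Mmp9* and *Il1r2*) summed to 5561 TPM for WT and 7457 TPM for *Cd300a-/-* in the SiglecF hi subset, and 18997 TPM for WT and 32811 TPM for *Cd300a-/-* in the SiglecF lo subset. *Retnlg*, which in WT went from 590.1 TPM in the SiglecF hi subset to 12110.1 TPM in the SiglecF lo subset, made up most of the difference between these sums in WT. All 6 had subset ratios below 0, but by unequal amounts. In WT *Ly6g* (-4.77) and *Retnlg* (-4.36) fell further than the pair and *Cxcr2* (-1.22) less, while *Csf3r* (-0.43), *Il1r2* (-0.33) and *Mmp9* (-0.15) stayed under the threshold. In *Cd300a-/-* neutrophils *Mmp9* (-0.42) and *Il1r2* (-0.03) stayed under it and *Csf3r* (-0.66) did not, and when centred all 6 were past it in both genotypes. Of all genes tested, 7.47% in WT and 7.97% in *Cd300a-/-* were past it and lower, or 20.9% and 23.6% when centred. The part of neutrophil content in the difference of the pair was not tested.

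Between genotypes the pair stayed under the threshold. The *Cd300a-/-* to WT ratio of *S100a8* was, in log2, 0.43 (0.42 to 0.44) in the SiglecF lo subset and 0.26 (0.24 to 0.28) in the SiglecF hi subset. *S100a9* had 0.23 (0.22 to 0.24) in the SiglecF lo subset and 0.16 (0.15 to 0.18) in the SiglecF hi subset. Both genes were thus above WT in both subsets, by less than 1.41-fold. The difference between the subsets in this ratio was 0.17 (0.15 to 0.19) for *S100a8* and 0.06 (0.05 to 0.08) for *S100a9*, beyond counting error, and was not tested otherwise. It depends on the scaling. With TMM it was 0.21 for *S100a8* and 0.11 for *S100a9*, and when centred 0.22 and 0.12. In SiglecF lo neutrophils 1278 of the 6523 genes had a higher genotype ratio than *S100a8*.

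Within a library, the ratio of *S100a8* to *S100a9* does not depend on the scaling between libraries. It was 0.756 (0.747 to 0.765) for WT and 0.811 (0.801 to 0.821) for *Cd300a-/-* in the SiglecF hi subset, and 0.812 (0.807 to 0.818) for WT and 0.937 (0.932 to 0.942) for *Cd300a-/-* in the SiglecF lo subset. *S100a9* was therefore the more abundant transcript of the pair in each library. The ratio was higher in *Cd300a-/-* than in WT neutrophils in both subsets, lowest in WT SiglecF hi and closest to parity in *Cd300a-/-* SiglecF lo neutrophils. The intermediate libraries, *Cd300a-/-* SiglecF hi and WT SiglecF lo, had overlapping intervals.

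*S100a11* and *S100a6* encode S100 proteins that bind annexins at membranes, S100A11 with annexin A1 as its best known partner and S100A6 (calcyclin) with annexins and the calcyclin-binding protein. *S100a11* was at 4114 TPM for WT and 4085 TPM for *Cd300a-/-* in the SiglecF hi subset, and 11537 TPM for WT and 10868 TPM for *Cd300a-/-* in the SiglecF lo subset. *S100a6* was at 742 TPM in WT SiglecF hi, 758 TPM in *Cd300a-/-* SiglecF hi, 2762 TPM in WT SiglecF lo and 3652 TPM in *Cd300a-/-* SiglecF lo neutrophils. Both were high in SiglecF lo and low in SiglecF hi neutrophils, and the genotypes overlapped in SiglecF hi neutrophils for both. The subset ratio of *S100a11* was -1.49 (-1.51 to -1.46) in WT and -1.41 (-1.44 to -1.38) in *Cd300a-/-* neutrophils. That of *S100a6* was -1.89 (-1.93 to -1.86) in WT and -2.27 (-2.30 to -2.23) in *Cd300a-/-* neutrophils. These differences are smaller than those of the calprotectin pair, and centring enlarged them, to -2.01 and -2.03 for *S100a11* and to -2.42 and -2.88 for *S100a6*.

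Between genotypes, the 2 genes parted in SiglecF lo neutrophils. *S100a6* was higher in *Cd300a-/-*, with a log2 ratio of 0.40 (0.38 to 0.43), close to that of *S100a8* and below the threshold. *S100a11* was at -0.09 (-0.11 to -0.06). In SiglecF hi neutrophils both lay near 0, at 0.03 (-0.01 to 0.08) for *S100a6*, which turned to -0.01 when centred, and at -0.01 (-0.04 to 0.02) for *S100a11*. *S100a11* has an annotated processed pseudogene, and how reads shared with it were placed is not given in the sources used here, so its level is uncertain.

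*S100a4* and *S100a10* were the members that differed past the threshold between genotypes. *S100a4* (metastasin, also called fibroblast-specific protein) binds nonmuscle myosin IIA and is widely used as a marker of fibroblasts, although myeloid cells express it too. It was at 419 TPM for WT and 363 TPM for *Cd300a-/-* in the SiglecF hi subset, and 537 TPM for WT and 294 TPM for *Cd300a-/-* in the SiglecF lo subset. WT SiglecF lo was the highest library and *Cd300a-/-* SiglecF lo the lowest, with both SiglecF hi libraries between them. The genotype ratio was, in log2, -0.87 (-0.98 to -0.75) in the SiglecF lo subset and -0.21 (-0.30 to -0.12) in the SiglecF hi subset. The subset ratio was -0.36 (-0.45 to -0.26) in WT and 0.30 (0.19 to 0.42) in *Cd300a-/-* neutrophils, and centring turned the latter to -0.31 and took the former to -0.88.

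*S100a10* (p11) holds its EF hands in an open form without calcium and pairs with annexin A2 at the plasma membrane, where the complex binds plasminogen. It was at 355 TPM in WT SiglecF hi, 286 TPM in *Cd300a-/-* SiglecF hi, 290.2 TPM in WT SiglecF lo and 148 TPM in *Cd300a-/-* SiglecF lo neutrophils. *Cd300a-/-* SiglecF lo stood apart as the low library, and *Cd300a-/-* SiglecF hi overlapped WT SiglecF lo. The genotype ratio was, in log2, -0.96 (-1.10 to -0.83) in the SiglecF lo subset and -0.31 (-0.40 to -0.22) in the SiglecF hi subset. The difference between the subsets in this ratio was -0.65 (-0.81 to -0.49) for *S100a10* and -0.66 (-0.81 to -0.51) for *S100a4*. Between subsets *S100a10* had a ratio of 0.29 (0.19 to 0.39) in WT, which turned to -0.24 when centred, and of 0.94 (0.81 to 1.07) in *Cd300a-/-* neutrophils, which became 0.33.

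Genes of nonneutrophil cells also differed between the SiglecF lo libraries. All 7 tested genes of the 8 endothelial markers were past the threshold and lower in *Cd300a-/-* SiglecF lo neutrophils. Among all genes tested, 19.9% were lower and 16.4% higher in that comparison. The list summed to 347 TPM for WT and 456 TPM for *Cd300a-/-* in the SiglecF hi subset, and 594 TPM for WT and 179 TPM for *Cd300a-/-* in the SiglecF lo subset, with *Fabp4* the most abundant and no marker at 0 in all libraries. Like *S100a4* and *S100a10*, it was lowest in *Cd300a-/-* SiglecF lo neutrophils. Of 5 smooth muscle and pericyte markers 4 were tested and 3 were lower, none was at 0 in all libraries, and the list summed to 118 TPM in WT SiglecF hi, 79.1 TPM in *Cd300a-/-* SiglecF hi, 808 TPM in WT SiglecF lo and 319 TPM in *Cd300a-/-* SiglecF lo neutrophils, led by *Acta2*. Of 9 fibroblast markers 7 were tested, 1 was higher and 1 lower, none was at 0 in all libraries, and the list summed to 2107 TPM for WT and 1488 TPM for *Cd300a-/-* in the SiglecF hi subset, and 984 TPM for WT and 994 TPM for *Cd300a-/-* in the SiglecF lo subset, led by *Dcn*. The fibroblast sum was alike between genotypes in SiglecF lo neutrophils, but its members went both ways, with *Postn* at 0.81 and *Pdgfrb* at -1.05. In SiglecF hi neutrophils 4 of the 7 fibroblast markers tested were past the threshold and lower in *Cd300a-/-*, where 3.46% of genes were. There 0 were higher, where 3.31% of genes were, and the median was -0.64. The sort took CD45.2+CD11b+Ly6G+ cells and was not aimed at endothelial cells, smooth muscle cells, pericytes or fibroblasts. Their part in the S100 values was not tested.

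*S100a13* takes part in the stress-induced export of FGF1 and IL-1α, which leave the cell without a signal peptide. It was at 89.3 TPM in WT SiglecF hi, 107 TPM in *Cd300a-/-* SiglecF hi, 117 TPM in WT SiglecF lo and 95.5 TPM in *Cd300a-/-* SiglecF lo neutrophils. Each library overlapped the next in this narrow range. The genotype ratio was -0.29 (-0.49 to -0.10) in the SiglecF lo subset and 0.26 (0.09 to 0.42) in the SiglecF hi subset. The signs were opposite, and both were under the threshold. The subset ratio was -0.39 (-0.57 to -0.21) in WT, or -0.92 centred, and 0.16 (-0.02 to 0.35) in *Cd300a-/-* neutrophils, or -0.45 centred.

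*S100a1*, the S100 protein of heart muscle that tunes calcium release and reuptake through the ryanodine receptor and SERCA2, was the least abundant member and the only one past the threshold and higher in SiglecF hi neutrophils of both genotypes on the deposited and the centred scale. It was at 71.8 TPM for WT and 52.5 TPM for *Cd300a-/-* in the SiglecF hi subset, and 22.7 TPM for WT and 20.6 TPM for *Cd300a-/-* in the SiglecF lo subset. The SiglecF hi libraries were the high ones and did not overlap the SiglecF lo libraries, which overlapped each other. These values rest on 437 counts for WT and 286 for *Cd300a-/-* in the SiglecF hi subset and on 81 in each SiglecF lo library. The subset ratio was 1.62 (1.29 to 1.95) in WT, or 1.09 centred, and 1.31 (0.97 to 1.65) in *Cd300a-/-* neutrophils, or 0.69 centred. Between genotypes it was -0.44 (-0.66 to -0.23) in the SiglecF hi subset and -0.14 (-0.56 to 0.29) in the SiglecF lo subset. *S100a1* and *S100a13* start 42 bases apart on opposite strands, and whether the counting used strand is not given in the sources used here, so reads near their starts are uncertain.

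Markers of heart muscle and of macrophages were read beside *S100a1*. The 10 cardiomyocyte markers summed to 65.9 TPM in WT SiglecF hi, 98.1 TPM in *Cd300a-/-* SiglecF hi, 62.0 TPM in WT SiglecF lo and 35.6 TPM in *Cd300a-/-* SiglecF lo neutrophils. Led by *Myl2* on the mean of the libraries but not in each, with 3 genes tested and none at 0 in all libraries, they were highest in *Cd300a-/-* SiglecF hi neutrophils, whereas *S100a1* was highest in WT SiglecF hi. The 10 macrophage markers summed to 8474 TPM for WT and 7384 TPM for *Cd300a-/-* in the SiglecF hi subset, and 3454 TPM for WT and 3159.7 TPM for *Cd300a-/-* in the SiglecF lo subset. This list, all 10 tested, none at 0 and led by *C1qb* in each library but *Cd300a-/-* SiglecF lo, had the same order of libraries as *S100a1*. Between subsets 7 of the 10 were past the threshold and higher in SiglecF hi neutrophils in WT and 9 in *Cd300a-/-*, or 7 and 5 when centred. Of all genes tested, 51.9% and 56.6% were higher, or 19.3% and 21.2% when centred. *Lyve1* went the other way, past the threshold and lower in WT (-0.53, or -1.05 centred) and, when centred, in *Cd300a-/-* neutrophils (-0.57). The part of these cells was not tested.

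Markers of other blood cells ranged from absent to abundant. The 9 eosinophil markers include *Siglecf* itself, the most abundant of them in the SiglecF hi libraries, while the defining genes *Epx* and *Gata1* had 0 counts in each library. *Ear2*, the other eosinophil marker tested and the most abundant in the SiglecF lo libraries, was at 109.8 TPM for WT and 113 TPM for *Cd300a-/-* in the SiglecF hi subset, and 171 TPM for WT and 85.9 TPM for *Cd300a-/-* in the SiglecF lo subset, with a genotype ratio of -0.98 (-1.17 to -0.79) in the latter and a subset ratio of -0.63 in WT and 0.39 in *Cd300a-/-* neutrophils, or -1.16 and -0.22 centred. *Ccr3*, below the limit, had 141 counts in each SiglecF hi library and 25 for WT and 33 for *Cd300a-/-* in the SiglecF lo subset. Of the 5 mast cell and basophil markers, *Cpa3*, *Mcpt4*, *Tpsb2* and *Mcpt8* had 0 counts in each library. *Kit*, the remaining marker and below the limit, had 394 counts in *Cd300a-/-* and 31 in WT SiglecF lo neutrophils, a log2 ratio of 2.73 (2.43 to 3.03), and 69 for WT and 60 for *Cd300a-/-* in the SiglecF hi subset. The 7 lymphocyte markers, none of them tested, summed to 4.03 TPM in WT SiglecF hi, 8.01 TPM in *Cd300a-/-* SiglecF hi, 10.7 TPM in WT SiglecF lo and 10.3 TPM in *Cd300a-/-* SiglecF lo neutrophils, led by *Cd79a* in the SiglecF hi libraries and *Cd3g* in the SiglecF lo libraries. Monocyte markers, 5 of 5 tested and led by *Chil3* in the SiglecF hi libraries and *Ly6c2* in the SiglecF lo libraries, summed to 1618 TPM for WT and 1418 TPM for *Cd300a-/-* in the SiglecF hi subset, and 2258 TPM for WT and 1975 TPM for *Cd300a-/-* in the SiglecF lo subset, with none past the threshold between genotypes. Between genotypes 16.4% of all genes tested were higher and 19.9% lower in the SiglecF lo subset, and 3.31% and 3.46% in the SiglecF hi subset. Of 6 dendritic cell markers only *H2-Ab1* was tested. It lay between 421 and 511 TPM and was past the threshold in no comparison on the deposited scale. The monocyte sum was higher in SiglecF lo neutrophils, but its genes differed. *Ly6c2* had subset ratios of -1.48 in WT and -1.64 in *Cd300a-/-* neutrophils, near those of *S100a11*, whereas *Fn1* was higher in SiglecF hi neutrophils (0.51 and 0.39, or -0.02 and -0.23 centred). The part of monocytes in the S100 values was not tested.

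Counted over the members, the subsets differed in more of them than the genotypes did, and so did all genes tested. Of these 6523 genes, 3873 in WT and 4212 in *Cd300a-/-* neutrophils were past the threshold between subsets, and 2367 in the SiglecF lo subset and 442 in the SiglecF hi subset between genotypes. In SiglecF hi against SiglecF lo neutrophils of WT mice, 4 of 8 members (*S100a8*, *S100a9*, *S100a6* and *S100a11*) were past the threshold and lower, where 7.47% of the genes tested were. One member, *S100a1*, was higher, where 51.9% of the genes tested were. In *Cd300a-/-* neutrophils the same 4 were lower, against 7.97% of genes, and 2 (*S100a1* and *S100a10*) were higher, against 56.6%. Relative to the median, 6 members were lower in WT (20.9% of genes) and 1 higher (19.3%), and in *Cd300a-/-* neutrophils 4 were lower (23.6%) and 1 higher (21.2%). The added members in WT were *S100a4* and *S100a13*. The median log2 ratio of the 8 members was -0.94 in WT and -0.62 in *Cd300a-/-* neutrophils, on the scale where that of all genes was 0.53 and 0.61.

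Between genotypes in SiglecF lo neutrophils, 2 of 8 members (*S100a4* and *S100a10*) were past the threshold and lower in *Cd300a-/-*, where 19.9% of genes were, a share close to that background. None was higher, where 16.4% of genes were. In SiglecF hi neutrophils no member was past the threshold in either direction, and few genes were, 3.31% higher and 3.46% lower. The median ratio of the members was -0.11 in the SiglecF lo subset and 0.01 in the SiglecF hi subset. The signs split in SiglecF lo neutrophils. The abundant *S100a8*, *S100a9* and *S100a6* lay above WT and the scarcer *S100a4*, *S100a10*, *S100a13* and *S100a1* below it, on each scaling tried, with the interval of *S100a1* including 0. *S100a11*, the third most abundant, was also below WT, at -0.09.

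**Figure D3:**
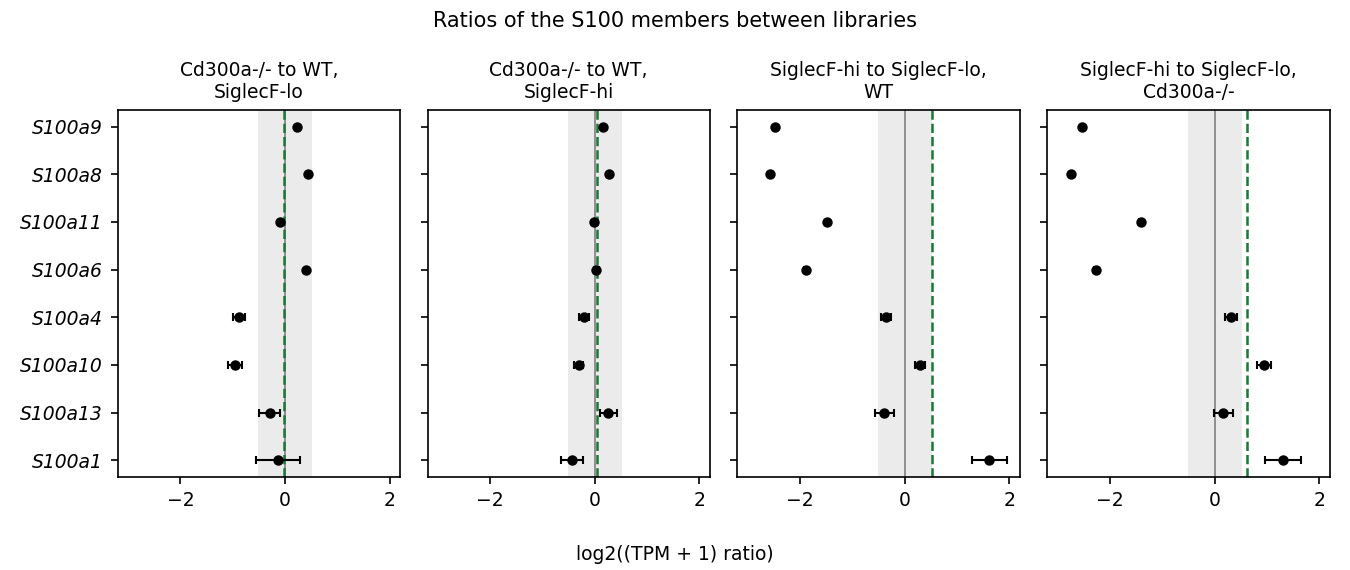
log2((TPM + 1) ratio) of the 8 members in the 4 comparisons, with 95% counting intervals, the zone within 0.5 of 0 in grey, and the median of the 6523 genes tested as a dashed green line. In SiglecF lo neutrophils *S100a4* and *S100a10* lie left of the zone, at -0.87 and -0.96. Between subsets *S100a8*, *S100a9*, *S100a6* and *S100a11* lie far left of it in both genotypes.

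Of the 10 other S100 genes in the files, only *S100a16* passed the limit of a mean of 10 TPM. *S100a16*, a widely expressed member with 1 working EF hand per subunit, was at 11.2 TPM in WT SiglecF hi, 13.8 TPM in *Cd300a-/-* SiglecF hi, 20.6 TPM in WT SiglecF lo and 11.5 TPM in *Cd300a-/-* SiglecF lo neutrophils. WT SiglecF lo was the high library. Its genotype ratio was -0.79 (-1.12 to -0.47) in the SiglecF lo subset and 0.28 (-0.01 to 0.56) in the SiglecF hi subset, the same signs as for *S100a13*, with 0 inside the latter interval. *S100a3*, best known from hair cuticle, had 7 counts in WT and 11 counts in *Cd300a-/-* SiglecF lo neutrophils and 0 in both SiglecF hi libraries. Its SiglecF lo level was 3.97-fold a floor of 3 counts in the SiglecF hi library in WT and 5.07-fold in *Cd300a-/-*. These folds leave out the counting error of the 7 and 11 counts. In WT the lower end of its interval was 0.614 TPM in SiglecF lo, against an upper end of 0.472 TPM in SiglecF hi neutrophils. In *Cd300a-/-* these ends were 1.09 and 0.527 TPM. It overlaps *S100a2*, and its reads are uncertain. *S100a2*, *S100a7a*, *S100b* and *S100g* had 8 counts or fewer in each library. *S100a5*, *S100a7l2*, *S100a14* and *S100z* had 0 counts in each.

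Receptors of extracellular S100 proteins were next. Of 11 receptor genes, 10 were tested. In SiglecF lo neutrophils 1 was higher in *Cd300a-/-* (16.4% of genes) and 2 were lower (19.9%), counts near those shares. In SiglecF hi neutrophils none was past the threshold, where 3.31% of genes were higher and 3.46% lower. *Tlr4*, the calprotectin receptor, was at 36.5 TPM for WT and 40.1 TPM for *Cd300a-/-* in the SiglecF hi subset, and 33.4 TPM for WT and 40.3 TPM for *Cd300a-/-* in the SiglecF lo subset, a narrow range. *Ly96*, which encodes its coreceptor MD-2, was at 31.0 TPM in WT SiglecF hi, 35.7 TPM in *Cd300a-/-* SiglecF hi, 61.0 TPM in WT SiglecF lo and 20.1 TPM in *Cd300a-/-* SiglecF lo neutrophils. The *Cd300a-/-* SiglecF lo library was the low one, with a genotype ratio of -1.55 (-1.93 to -1.18). *Cd14*, the third part of that complex, was the most abundant receptor gene, at 3034 TPM for WT and 3717 TPM for *Cd300a-/-* in the SiglecF hi subset, and 4015 TPM for WT and 4471 TPM for *Cd300a-/-* in the SiglecF lo subset.

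*Ager*, the gene for RAGE, had 44 counts for WT and 31 for *Cd300a-/-* in the SiglecF hi subset, and 3 for WT and 60 for *Cd300a-/-* in the SiglecF lo subset and was below the limit. *Cd33*, which encodes a sialic acid receptor that binds S100A9, was higher in *Cd300a-/-* SiglecF lo neutrophils (0.69), and *Cd69*, whose protein binds S100A8 and S100A9, was lower (-0.78). *Bsg* (EMMPRIN), a receptor for S100A9, was at 380 TPM for WT and 326 TPM for *Cd300a-/-* in the SiglecF hi subset, and 220.4 TPM for WT and 156 TPM for *Cd300a-/-* in the SiglecF lo subset. Its order of libraries was the reverse of that of *S100a9*. Between subsets 4 receptor genes were higher (51.9% of genes) and 2 lower (7.47%) in SiglecF hi neutrophils in WT. In *Cd300a-/-* neutrophils 5 were higher (56.6%) and 2 lower (7.97%). Centring changed the split to 2 higher and 4 lower in both, against 19.3% and 20.9% of genes in WT and 21.2% and 23.6% in *Cd300a-/-*. *Cd69* had the largest rise between subsets among the 10 tested receptor genes in both genotypes, 1.37 in WT and 2.37 in *Cd300a-/-* neutrophils, and *Mcam* the largest fall, -1.81 in WT and -1.10 in *Cd300a-/-*.

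The genes of S100 partners followed their S100 genes only in part. Beside intracellular and export partners, the list holds genes of the plasminogen system (*Plg*, *Plat*, *Plau*, *Plaur* and *Plgrkt*), whose products are not intracellular partners. Of 19 partner genes 13 were tested, and *Myh14*, *Plg* and *Syt1* had 0 counts in each library. In SiglecF lo neutrophils 5 were higher in *Cd300a-/-* (16.4% of genes) and 1 was lower (19.9%), with a median of 0.37. In SiglecF hi neutrophils 1 was higher (3.31%). *Anxa2*, the partner of *S100a10*, was at 928 TPM in WT SiglecF hi, 869 TPM in *Cd300a-/-* SiglecF hi, 1599.9 TPM in WT SiglecF lo and 1654 TPM in *Cd300a-/-* SiglecF lo neutrophils. It did not share the low level of *S100a10* in *Cd300a-/-* SiglecF lo neutrophils. The ratio of *S100a10* to *Anxa2* within a library, a comparison added after the values were seen, was 0.382 (0.366 to 0.399) for WT and 0.329 (0.313 to 0.346) for *Cd300a-/-* in the SiglecF hi subset, and 0.181 (0.171 to 0.192) for WT and 0.0898 (0.0831 to 0.0970) for *Cd300a-/-* in the SiglecF lo subset. *S100a10* was thus the scarcer transcript in each library, above all in SiglecF lo neutrophils, and scarcer in *Cd300a-/-* than in WT in both subsets. *Ahnak*, whose large scaffold protein binds the p11 and annexin A2 complex, had a genotype ratio of 1.05 (0.97 to 1.12) in the SiglecF lo subset and 0.02 in the SiglecF hi subset.

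*Anxa1*, the partner of *S100a11* and a proresolving annexin, was at 426 TPM in WT SiglecF hi, 452 TPM in *Cd300a-/-* SiglecF hi, 826 TPM in WT SiglecF lo and 1452 TPM in *Cd300a-/-* SiglecF lo neutrophils. It was lower in SiglecF hi neutrophils, as was *S100a11*, and higher in *Cd300a-/-* SiglecF lo neutrophils (0.81), where *S100a11* was not. The ratio of *S100a11* to *Anxa1*, also added later, was 9.65 for WT and 9.05 for *Cd300a-/-* in the SiglecF hi subset, and 13.97 for WT and 7.48 for *Cd300a-/-* in the SiglecF lo subset. Highest in WT and lowest in *Cd300a-/-* SiglecF lo neutrophils, it spread widest between genotypes in that subset. *Myh9*, the nonmuscle myosin heavy chain bound by S100A4, was at 318 TPM in WT SiglecF hi, 349 TPM in *Cd300a-/-* SiglecF hi, 303 TPM in WT SiglecF lo and 476 TPM in *Cd300a-/-* SiglecF lo neutrophils. It was highest in the library where *S100a4* was lowest. *Plau* (1.04) and *Anxa11* (0.97) had the other large ratios in SiglecF lo neutrophils, and *Plgrkt*, a plasminogen receptor gene, was lower (-0.76).

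Between subsets 5 partner genes were higher (51.9% of genes) and 5 lower (7.47%) in SiglecF hi neutrophils in WT. In *Cd300a-/-* neutrophils 5 were higher (56.6%) and 4 lower (7.97%). Centring changed these to 3 higher (19.3%) and 5 lower (20.9%) in WT and 1 higher (21.2%) and 6 lower (23.6%) in *Cd300a-/-*. *Il1a*, whose product leaves the cell with S100A13, was at 278 TPM for WT and 442 TPM for *Cd300a-/-* in the SiglecF hi subset, and 68.7 TPM for WT and 89.2 TPM for *Cd300a-/-* in the SiglecF lo subset. It was high in SiglecF hi neutrophils and was the only partner gene past the threshold between genotypes there (0.66), while *S100a13* was within 0.5 in each comparison on the deposited scale.

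Of 11 transcription factor genes tied to *S100a8* and *S100a9*, 10 were tested, and between subsets each of these moved less than the pair, as deposited and when centred. This did not hold between genotypes. In *Cd300a-/-* SiglecF lo neutrophils 2 were higher, *Cebpe* (0.57) and *Stat3* (0.51), where 16.4% of genes were, and none was lower, where 19.9% were. *Cebpa* (0.46) was also above *S100a8* (0.43). In SiglecF hi neutrophils none was past the threshold, where 3.31% of genes were higher and 3.46% lower. There *Irf7* (0.47) and *Stat3* (0.32) had higher ratios than *S100a8* (0.26). *Cebpb*, the most abundant, was at 2408 TPM in WT SiglecF hi, 2668 TPM in *Cd300a-/-* SiglecF hi, 2994 TPM in WT SiglecF lo and 3072 TPM in *Cd300a-/-* SiglecF lo neutrophils. *Spi1*, which encodes the myeloid factor PU.1, was at 395 TPM for WT and 430 TPM for *Cd300a-/-* in the SiglecF hi subset, and 611 TPM for WT and 693 TPM for *Cd300a-/-* in the SiglecF lo subset. Both genes had the same order of libraries as *S100a8* and *S100a9*, over a far smaller range. *Cebpd*, another C/EBP gene, was lower in SiglecF hi neutrophils past the threshold in WT (-0.67) and not in *Cd300a-/-* (-0.41). *Cebpa*, the C/EBP of early myeloid cells, went the other way, with subset ratios of 1.72 in WT and 1.01 in *Cd300a-/-* neutrophils. In all, 2 of the 10 were higher (51.9% of genes) and 2 lower (7.47%) in SiglecF hi neutrophils in WT. In *Cd300a-/-* neutrophils 3 were higher (56.6%) and 2 lower (7.97%). When centred, 1 was higher (19.3%) and 4 lower (20.9%) in WT, and 0 were higher (21.2%) and 5 lower (23.6%) in *Cd300a-/-*.

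Granule and maturation genes, which mark the stage of a neutrophil, spread far wider than the calprotectin genes. Of 20, 17 were tested. Between subsets 12 were lower (7.47% of genes) and 2 higher (51.9%) in SiglecF hi neutrophils in WT. In *Cd300a-/-* neutrophils 13 were lower (7.97%) and 1 higher (56.6%). The medians were -2.64 in WT and -2.31 in *Cd300a-/-*. When centred, 15 were lower and 0 higher in both genotypes, against 20.9% and 19.3% of genes in WT and 23.6% and 21.2% in *Cd300a-/-*. On the deposited scale *S100a8* (-2.58) and *S100a9* (-2.47) lay near the list's median in WT. In *Cd300a-/-* neutrophils both (-2.75 and -2.54) lay below it. *Ngp*, a gene of specific granules, was at 12.96 TPM in WT SiglecF hi, 293 TPM in *Cd300a-/-* SiglecF hi, 1177 TPM in WT SiglecF lo and 3096 TPM in *Cd300a-/-* SiglecF lo neutrophils. Between genotypes 10 of 17 were higher in *Cd300a-/-* in each subset and none was lower. Of all genes tested, 16.4% were higher and 19.9% lower in the SiglecF lo subset, and 3.31% and 3.46% in the SiglecF hi subset. The median was 0.86 in the SiglecF lo subset and 0.99 in the SiglecF hi subset, against 0.43 and 0.26 for *S100a8*. *Ngp* (4.40), *Camp* (2.94) and *Ly6g* (1.82) had the largest genotype ratios in SiglecF hi neutrophils, where *S100a8* and *S100a9* differed little.

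Other EF-hand proteins served as a comparison within the calcium-binding fold. All 12 such genes were tested. In SiglecF lo neutrophils 1 was higher in *Cd300a-/-* (16.4% of genes), *Sri* (0.66), which encodes sorcin, and none was lower (19.9%). None was past the threshold in SiglecF hi neutrophils, where 3.31% of genes were higher and 3.46% lower. Between subsets 2 were higher (51.9%) and 1 lower (7.47%) in SiglecF hi neutrophils in WT. In *Cd300a-/-* neutrophils 1 was higher (56.6%) and 4 were lower (7.97%). When centred, none was higher (19.3%) and 6 were lower (20.9%) in WT, and none was higher (21.2%) and 7 were lower (23.6%) in *Cd300a-/-*. Their summed level, as deposited, was nearly the same in each library, at 4785 TPM for WT and 4793 TPM for *Cd300a-/-* in the SiglecF hi subset, and 4785 TPM for WT and 4985 TPM for *Cd300a-/-* in the SiglecF lo subset. Relative to the median of all genes their median ratio between subsets was -0.57 in WT and -0.54 in *Cd300a-/-* neutrophils. On the deposited scale the S100 members spanned from 2.99% to 18.8% of TPM.

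The genes with the most similar pattern over the 4 libraries were found for each member by the Euclidean distance between profiles of log2(TPM + 1), centred on each gene's own mean. *S100a8* lay nearest to *Rdh12* (0.185), *Chil1* (0.188) and *S100a9* (0.225). *S100a9* lay nearest to *S100a8*, *Foxd4* (0.271) and *Rdh12* (0.284). *Rdh12*, a retinol dehydrogenase gene, was at 36.5 TPM in WT SiglecF hi, 46.7 TPM in *Cd300a-/-* SiglecF hi, 264 TPM in WT SiglecF lo and 308 TPM in *Cd300a-/-* SiglecF lo neutrophils. The calprotectin genes were thus each among the 3 nearest genes of the other out of 6523. *S100a6* lay nearest to *Nfe2* (0.122), *Mcemp1* (0.153) and *A530064D06Rik* (0.160), and *S100a11* to *Ripor2* (0.0796), *Taldo1* (0.197) and *Ly6c2* (0.204).

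Among the members themselves, *S100a6* was at 0.454 from *S100a9* and 0.720 from *S100a11*. *S100a4* was at 0.531 from *S100a13* and 0.648 from *S100a10*, and *S100a1* was farthest from *S100a8*, at 4.17. *S100a8*, *S100a9*, *S100a6* and *S100a11* were nearer to one another than to any of the scarcer members. *S100a4* lay nearest to *Htatip2* (0.0873), *Cwc25* (0.0987) and *Dhdds* (0.0989), and *S100a10* to *Cenpx* (0.0706), *Fkbp1a* (0.0755) and *Ufc1* (0.0818). *S100a13* lay nearest to *Hnrnph2* (0.0567), *Mob4* (0.0573) and *Pigx* (0.0702). *S100a1* lay nearest to *Cd180* (0.0664), *Imp3* (0.0889) and *Scpep1* (0.0908). Over 4 libraries a small distance is a description only.

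The members that were low in SiglecF hi neutrophils were also compared by promoter. Of the 8 members 7 were matched by symbol to RefSeq promoter windows on GRCm38.p6, and the 250 bases before each start were searched on both strands. The motifs were the TATA box (TATAAA, found in 12.4% of 32851 windows of this length), a C/EBP core (TTNNGCAA, 9.56%), a PU.1 core (GAGGAA, 23.3%), a STAT motif (TTCNNNGAA, 7.02%), an AP-1 motif (TGANTCA, 6.75%) and a GC box (GGGCGG, 32.7%). The windows of *S100a8* (chr3:90668821-90669070, plus strand), *S100a9* (chr3:90695722-90695971, minus strand) and *S100a11* (chr3:93520246-93520495, plus strand) are printed 5′ to 3′, those of the calprotectin genes because their transcripts moved nearly in step and that of *S100a11* because it holds the most matches. Capitals mark the matches, and adjoining matches run on.
S100a8: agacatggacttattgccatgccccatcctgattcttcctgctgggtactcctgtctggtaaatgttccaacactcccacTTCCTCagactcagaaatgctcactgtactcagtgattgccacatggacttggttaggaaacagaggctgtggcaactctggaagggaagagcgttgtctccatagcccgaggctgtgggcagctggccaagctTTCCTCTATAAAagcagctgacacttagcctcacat
S100a9: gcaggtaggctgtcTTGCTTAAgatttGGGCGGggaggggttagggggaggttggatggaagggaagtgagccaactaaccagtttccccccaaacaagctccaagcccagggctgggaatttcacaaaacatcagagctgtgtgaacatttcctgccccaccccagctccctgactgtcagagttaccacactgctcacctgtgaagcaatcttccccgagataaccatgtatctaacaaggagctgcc
S100a11: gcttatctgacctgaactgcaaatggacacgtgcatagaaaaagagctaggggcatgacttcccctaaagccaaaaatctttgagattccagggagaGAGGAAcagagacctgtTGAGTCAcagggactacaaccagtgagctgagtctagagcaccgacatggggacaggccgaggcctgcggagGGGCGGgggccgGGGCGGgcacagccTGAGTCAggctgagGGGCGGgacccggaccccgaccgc
In *S100a8* the TATA box lies 30 to 25 bases before the start, joined to a PU.1 core on the other strand at 36 to 31, with a second such core at 170 to 165. *S100a9* has a C/EBP core at 236 to 229 and a GC box at 223 to 218, and none of the letters searched for a TATA box. *S100a11* has 3 GC boxes, 2 AP-1 motifs and 1 PU.1 core. The calprotectin genes shared none of the 6 motifs in these windows. *S100a4* has a TATA box 31 to 26 bases before its start, no window of the 7 holds the STAT motif, and the windows of *S100a6*, *S100a13* and *S100a1* hold none of the 6. *S100a6* was nearer in profile to the calprotectin genes than *S100a11* was. *S100a10* was not among those matched. A match is a run of letters and not a bound site.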

How the data were processed

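Poly(A) RNA of 4 pools of sorted neutrophils was sequenced in paired ends, and the authors calculated expression with CLC Genomics Workbench. The authors deposited a count per gene, without normalization, and from it RPKM and TPM. The deposited signal named CPM is the count divided by depth and multiplied by a factor for each library. The submitters' processing notes name GRCm39. The annotation release and the use of strand are not given in the sources used here. TPM and counts were used. RPKM served to derive gene lengths, and the scaled signal was not used further. Ratios are log2((TPM + 1) ratios), called past 0.5, among genes with a mean TPM above 10. Intervals use the Poisson error of both counts. Alternatives were TMM-scaled counts (edgeR 4.0.16), centring on the median, TPM without *S100a8* and *S100a9* in the total, a pseudocount of 0.1, other TPM limits and a log2 threshold of 1. Genes named are the members, other S100 genes, fixed partners, and up to 3 rises and 3 falls per list and comparison, and those with opposite directions in 2 groups. Members and lists were chosen with earlier results of these data known, and the motifs after the values were seen. Calculations were tested on simulated counts. Python 3.11.15 and R 4.3.3 were used.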

Additional observations from a re-analysis of the deposited data

Results flagged for a closer look

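Opposite directions in 2 groups, with both counting intervals away from 0, drew attention to 14 results among the 42 tested S100, receptor, partner and transcription factor genes, and none of these differences was tested. The granule, EF-hand and cell marker lists were not searched in this way.

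Between genotypes (*Cd300a-/-* over WT) 9 log2 ratios had opposite signs in the subsets, and centring on the median of all genes kept them opposite. *S100a13* was at -0.29 in the SiglecF lo subset and 0.26 in the SiglecF hi subset, which differ by -0.55. In the same order *Mcam* was at -0.47 and 0.24 (difference -0.71), *Cd69* at -0.78 and 0.22 (-0.999), *Plgrkt* at -0.76 and 0.30 (-1.06), *Nlrp3* at -0.16 and 0.18 (-0.34) and *Irf7* at -0.09 and 0.47 (-0.56). *Anxa2* was at 0.05 and -0.10 (0.14), *Casp1* at 0.38 and -0.21 (0.59) and *Cebpa* at 0.46 and -0.24 (0.71).

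Between subsets (SiglecF hi over SiglecF lo) 5 ratios had opposite signs in the genotypes. *Ly96*, the MD-2 gene, was at -0.95 in WT and 0.80 in *Cd300a-/-* neutrophils, which differ by -1.75, and it stayed opposite when centred, at -1.48 and 0.18. In the others both ratios are below 0 when centred. *S100a4* was at -0.36 in WT and 0.30 in *Cd300a-/-* neutrophils (difference -0.66), or -0.88 and -0.31 centred. *Myh9* was at 0.07 and -0.45 (0.51), or -0.46 and -1.06 centred. *Plgrkt* was at -0.54 and 0.52 (-1.06), or -1.07 and -0.09 centred, and *Casp1* at 0.19 and -0.40 (0.59), or -0.34 and -1.02 centred. For *Plgrkt* and *Casp1* the difference is the same number as between genotypes by construction.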

How the results depend on the processing

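The number of S100 members past the threshold stayed within 1.5 times under 31 of 32 combinations of alternative and comparison. The exception was a log2 threshold of 1, under which 0 members were called between genotypes in SiglecF lo neutrophils. Of 128 single-member ratios under another scaling or pseudocount, 70 stayed within the counting interval, 58 moved outside it and 0 called ratios changed sign. Those under the threshold that changed sign were *S100a6* between genotypes in SiglecF hi neutrophils, *S100a10* between subsets in WT, and *S100a4* and *S100a13* between subsets in *Cd300a-/-* neutrophils. The higher ratio of *S100a10* in *Cd300a-/-* SiglecF hi neutrophils fell below the threshold with TMM scaling and centring. The difference of the genotype ratios between subsets stayed within its interval in 21 of 32 cases. The others were of *S100a8*, *S100a9*, *S100a6* and *S100a11*. For *S100a9* it was 0.06 and rose to 0.11 with TMM scaling and to 0.12 with centring or without *S100a8* and *S100a9* in the total. For *S100a11* it was -0.08 and shrank to -0.03 with TMM scaling and to -0.02 under both of the latter.

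All genes past the threshold numbered 2367 in the SiglecF lo subset and 442 in the SiglecF hi subset between genotypes, and 3873 in WT and 4212 in *Cd300a-/-* neutrophils between subsets. In that order a mean TPM above 1 gave 5178, 1716, 7317 and 7619, no limit gave 6476, 2674, 8813 and 8996, and a log2 threshold of 1 gave 611, 46, 1520 and 1975. TPM above 10 in at least 1 library gave 709 genes in SiglecF hi neutrophils. More genes entered under the looser limits and fewer passed the higher threshold by construction. By counts, the ratio of *S100a8* to *S100a9* was 0.704 for WT and 0.755 for *Cd300a-/-* in the SiglecF hi subset, and 0.756 for WT and 0.872 for *Cd300a-/-* in the SiglecF lo subset, lower by the ratio of the gene lengths. The 8 members took 0.723%, 0.787%, 4.26% and 5.04% of counts in the same order.

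No paired analysis was possible because each group has 1 library, so no library was left out. Depth limits *S100a1* most, at 81 counts in each SiglecF lo library.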
